A study of Mus musculus with 28 samples.

Results

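The calf muscle gastrocnemius was compared between old and young mice over 8 arrays, 4 at 24 months and 4 at 6 months of age, chosen by their labels out of 28 arrays of the series. Each array measured total RNA of the whole muscle. The contrast is the mean at 24 months minus the mean at 6 months for each of 30063 genes, 1 probe set per gene. The mice were female C57BL/6J, an inbred laboratory strain, aged 24 weeks in the 6-month group and 103 weeks in the 24-month group. Both groups were group housed, ate chow and went without food overnight before the tissue was taken, and no genotype or drug distinguished them. Heart was measured on the same array type with 4 arrays per age, and the quadriceps, a thigh muscle, on another type with 3 per age. Expression is given on the log2 scale, where 1 unit stands for a factor of 2. Nothing in the labels ties each array to an animal of its own, so a p-value here measures only how much these samples vary, which may be technical.

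The gastrocnemius of the mouse is built mostly of fast fibres, which run on glycolysis and contract with the fast myosin heavy chain encoded by Myh4. Around the fibres lie capillaries, nerve endings, fibroblasts with their collagen, satellite cells that repair the fibres, and resident macrophages. Muscle of old animals is known for lost mass and force, altered nerve contacts, more connective tissue and more immune cells. Amylases split starch and are known mainly from salivary gland and pancreas, with Amy1 the salivary and Amy2 genes the pancreatic form. Aldh1a1 encodes a retinaldehyde dehydrogenase, which makes retinoic acid and clears reactive aldehydes.

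The protein-coding genes past the threshold were Amy1 and Aldh1a1, and their start regions are shown because both rose at 24 months. RefSeq, in build GRCm38.p6, lists more than 1 start for each gene. The windows shown are those of the more downstream start, each running from 250 bases before it to 50 bases after it. For Amy1 the window lies on the minus strand at chr3:113574713-113575012, and for Aldh1a1 on the plus strand at chr19:20601718-20602017. Amy1 is known to have a start used in the parotid gland and another used in liver and other tissues, and the 1 value per gene does not tell which start the RNA came from. Capitals mark every match, on either strand, to a TATA box (TATAAA), to the core of a CCAAT box (CCAAT) and to an E-box of myogenic factors (CAGCTG), and no matches overlap in these windows.
Amy1: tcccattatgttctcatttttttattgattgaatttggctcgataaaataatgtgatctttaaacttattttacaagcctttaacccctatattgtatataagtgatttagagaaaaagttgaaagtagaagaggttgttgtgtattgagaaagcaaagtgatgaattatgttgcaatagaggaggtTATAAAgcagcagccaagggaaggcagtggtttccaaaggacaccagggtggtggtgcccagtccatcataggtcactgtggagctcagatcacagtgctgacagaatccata
Aldh1a1: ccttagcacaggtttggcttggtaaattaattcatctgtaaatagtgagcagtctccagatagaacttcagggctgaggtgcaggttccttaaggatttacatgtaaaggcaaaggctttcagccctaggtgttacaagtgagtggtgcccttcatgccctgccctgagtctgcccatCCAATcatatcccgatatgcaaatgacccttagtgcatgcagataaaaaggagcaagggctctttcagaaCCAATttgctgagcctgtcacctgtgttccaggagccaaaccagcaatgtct
The Amy1 window held 1 TATAAA, at -63 from the listed start, and neither other motif. The Aldh1a1 window held CCAAT 2 times, at -72 and at -2, with the second running across the start. The windows of both upstream starts held none of the 3 motifs. Among 32851 RefSeq start windows of this length, 13.6% held TATAAA, 37.4% CCAAT and 16.3% CAGCTG on either strand. These matches describe letters only.

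The arrays held the transcripts of fast skeletal muscle. Myh4 lay between 13.55 and 13.60 at 6 months and between 13.55 and 13.62 at 24 months, while in heart it did not exceed 6.00. All 14 skeletal muscle defining genes lay above the array median. Arrays of the muscle correlated with each other at a Pearson r of 0.993 to 0.997 across genes, which are not independent replicates. No pair of the 28 pairs of gastrocnemius arrays was identical, and the standard error of the age difference had a median of 0.067 log2 units over genes.

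24-month replicate 3 stood apart from the other old arrays. Its interquartile range was 2.78, as in 6-month replicates 2 and 3, against 2.64 to 2.66 in the other 24-month arrays and 2.73 to 2.78 at 6 months. Its mean r was 0.9961 with the 6-month arrays and 0.9955 with the other 24-month arrays. The mean interquartile range was 2.76 at 6 months and 2.68 at 24 months (two-sided exact permutation p = 0.143, where 4 against 4 arrays allow at least 0.0286). In the other 24-month arrays, dim genes lay above and bright genes below the mean of the 6-month arrays, with a Spearman rho of the deviation with expression of -0.34, -0.37 and -0.33. In replicate 3 rho was 0.048. Over all genes the age difference itself followed expression, with a median of 0.055 in the dimmest of 10 expression classes and -0.080 in the brightest (rho -0.34, or -0.41 without replicate 3). Of the 6368 genes at an unadjusted p under 0.05 without replicate 3, that array lay on the same side of the 6-month mean for 75.0%, against 86.5% to 94.5% for the other 24-month arrays at the genes found without each of them. The part of this trend in the list medians below was not tested, and medians are also given after cyclic loess, a normalization that removes trends with brightness, where it moved them by over 1.5 times or turned their sign.

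**Figure D1:**
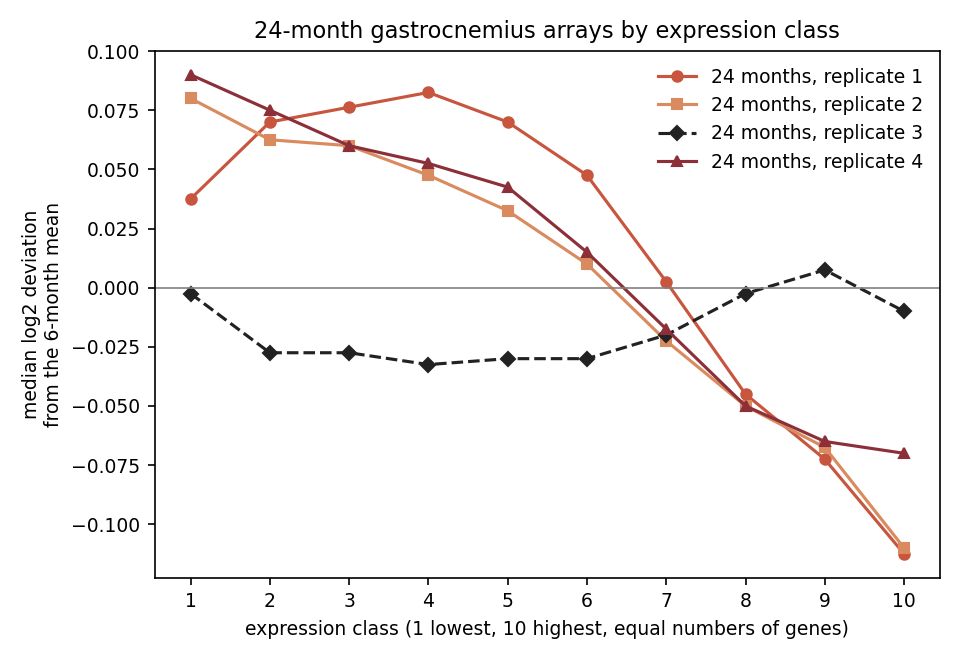
Median log2 deviation of each 24-month gastrocnemius array from the mean of the 6-month arrays (vertical axis), in 10 classes of equal gene number by mean expression (horizontal axis). Replicates 1, 2 and 4 run from above 0 in dim classes to below 0 in bright ones, while replicate 3, dashed, stays between -0.033 and 0.0075.

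Amy1 rose at 24 months. It read 8.14, 8.23, 8.21 and 7.99 in the 6-month arrays and 8.72, 8.83, 8.96 and 9.05 in the 24-month arrays. Every old array lay above every young one. The means were 8.14 ± 0.11 and 8.89 ± 0.14 (SD, n = 4 per age), a difference of 0.75 (SE 0.082), or 1.68-fold, at an adjusted p of 0.0461 in limma over all genes. Aldh1a1 rose as well. Its values were 10.04, 10.02, 10.05 and 9.96 at 6 months and 10.43, 10.59, 10.53 and 10.58 at 24 months, without overlap. The mean went from 10.02 ± 0.040 to 10.53 ± 0.073 (SD, n = 4 per age), a difference of 0.52 (SE 0.051), 1.43-fold, with an adjusted p of 0.0313 in the same limma fit. Gm24838, a small nucleolar RNA gene by its RefSeq type, was the third to rise. Small nucleolar RNAs guide chemical modification of other RNAs. The young arrays read 6.33, 6.26, 6.37 and 6.31 and the old ones 6.92, 6.90, 6.79 and 6.94. That is a rise from 6.32 ± 0.046 to 6.89 ± 0.067 (SD, n = 4 per age), a difference of 0.57 (SE 0.051), 1.48-fold, at an adjusted p of 0.0227 in limma.

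These 3 genes, all higher at 24 months, were 0.00998% of the 30063 genes, and limma called 0 genes lower. Among the other fits, some called many more genes, most of them lower: 197 higher and 632 lower in a joint fit with heart, 32 and 57 with array weights, and 31 and 50 without dim genes. An unadjusted p under 0.05 was reached by 2237 genes on the higher side (7.44%) and 2721 on the lower (9.05%), where the threshold alone would give 1503 in all. The arrays of the ages did not overlap in 1161 genes with the old arrays higher (3.86%) and in 1438 with the old arrays lower (4.78%). Leaving out 24-month replicate 3 gave 16 calls, 4 higher and 12 lower, with Aldh1a1 at an adjusted p of 0.0494, Gm24838 at 0.0263 and Amy1 at 0.0523 in limma. Leaving out 6-month replicate 1, 2 or 3 or 24-month replicate 2 or 4 left limma with 0 calls, at 3478 to 4722 genes with an unadjusted p under 0.05. Without 6-month replicate 4 limma called 70 genes, 9 higher and 61 lower, and without 24-month replicate 1 it called 5. The difference of Amy1 stayed between 0.69 and 0.80 in these 8 fits.

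**Figure D2:**
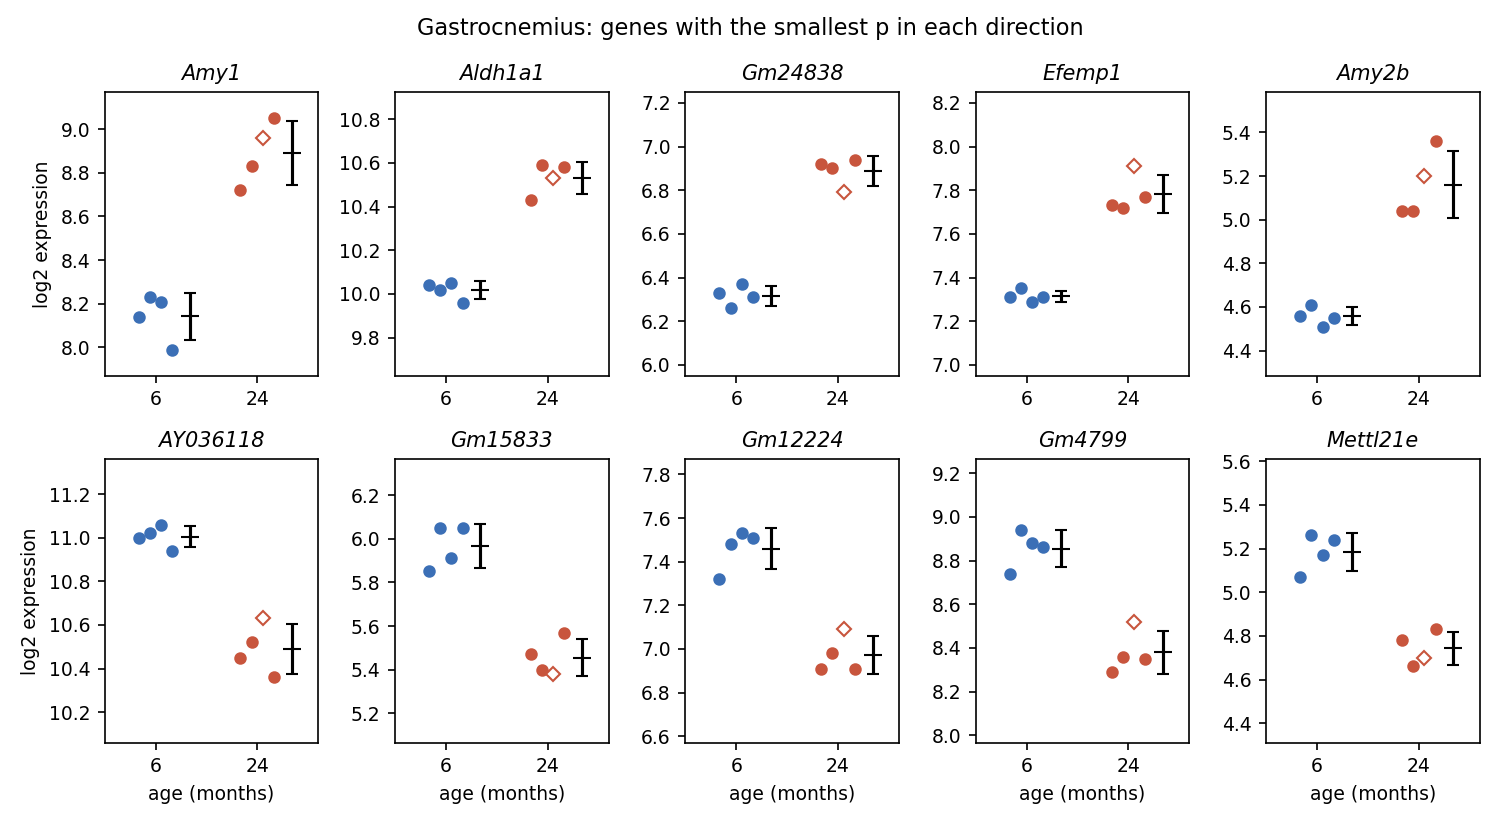
Log2 expression (vertical axis, of equal span in every panel) at 6 and 24 months of the 5 genes of smallest p in each direction in gastrocnemius, higher in the upper row and lower in the lower row. Points are arrays, the open diamond is 24-month replicate 3, and bars are mean ± SD (n = 4 per age). In each panel the ages do not overlap, and only Amy1, Aldh1a1 and Gm24838 passed the threshold.

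Other amylase probe sets gave differences of the same sign. Amy2b, a pancreatic amylase gene, read 4.56, 4.61, 4.51 and 4.55 in young muscle and 5.04, 5.04, 5.20 and 5.36 in old muscle, a difference of 0.60 (SE 0.074) without overlap, at an adjusted p of 0.0633 in limma. The probe set of Amy2a1 alone gave 0.285, also without overlap, and that of the pseudogene Amy2-ps1 gave 0.18 with overlap. A further 4 probe sets, each annotated to all the Amy2a genes, gave 0.39 to 0.42 without overlap, and 2 of them hold identical values on every array. The amylase genes are close copies of each other, so RNA of 1 of them can bind probes of another, and their separate differences cannot be told apart here. No Amy2 probe set exceeded 5.36, below the array medians of 5.54 to 5.63, whereas Amy1 lay above them on every array. Defining genes of the exocrine pancreas lay near or below the array medians. Cela1, an elastase, lay between 5.65 and 5.88 over the 8 arrays. The carboxypeptidase gene Cpa1 lay between 5.33 and 5.46, Prss2, a trypsinogen gene, between 4.01 and 4.30, and Ctrb1, a chymotrypsinogen gene, between 5.40 and 5.61. The ages overlapped in these 4, and the other pancreas genes of the list are not given singly here. The exocrine pancreas and amylase list as a whole, which holds the amylases above, had 18 of 21 genes higher. Of these, 5 were at an unadjusted p under 0.05 and 4 without overlap (9 without 24-month replicate 3), beside 7.44% and 3.86% of all genes. The genes without overlap were not all amylases. The list median was 0.093, or 0.059 after cyclic loess. Of the list's genes, 5 lay above the array median, and the list mean per array lay between 5.06 and 5.11 in young and between 5.12 and 5.24 in old muscle.

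Among the relatives of Aldh1a1, the closest is Aldh1a7, its neighbour on chromosome 19. Aldh1a7 gave 6.21, 6.28, 6.21 and 6.21 at 6 months and 6.41, 6.60, 6.61 and 6.52 at 24 months, a difference of 0.31 (SE 0.056) at an adjusted p of 0.103 in limma. Its sequence is close to that of Aldh1a1, and binding of Aldh1a1 RNA to its probes was not tested. The other retinoic acid forming enzymes gave smaller differences, 0.10 for Aldh1a3 and 0.083 for Aldh1a2, which was 0.016 without 6-month replicate 1. In the retinoid metabolism list, 1 of 29 genes passed the threshold, Aldh1a1 itself, and the list median was 0.033, or 0.013 after cyclic loess, beside 0.015 over all genes.

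The next genes on the higher side, which did not pass, were Efemp1 and Amy2b. Efemp1 encodes fibulin-3, a glycoprotein of the extracellular matrix. It read 7.31, 7.35, 7.29 and 7.31 in the young arrays and 7.73, 7.72, 7.91 and 7.77 in the old ones, a difference of 0.47 (SE 0.053) at an adjusted p of 0.0510 in limma. Quantile normalization brought it past the threshold at 0.00705. On the lower side the smallest p belonged to AY036118, a long noncoding RNA gene by RefSeq type, which lay between 10.94 and 11.06 at 6 months and between 10.36 and 10.63 at 24 months (difference -0.52, adjusted p 0.0633 in limma). Mettl21e, of a family of muscle protein lysine methyltransferases, read 5.07, 5.26, 5.17 and 5.24 when young and 4.78, 4.66, 4.70 and 4.83 when old (difference -0.44, adjusted p 0.0734 in limma). Differences of the pseudogenes Gm15833 and Gm4799 were -0.51 and -0.48, and that of the long noncoding Gm12224 was -0.49, each at the same adjusted p of 0.0734. In all of these the ages did not overlap. Sult1e1, the estrogen sulfotransferase, was picked out after its values were seen for the size of its difference, 1.06 (adjusted p 0.0873 in limma). It lay between 3.82 and 4.12 at 6 months and between 4.49 and 5.35 at 24 months, below the median of every array.

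Gene lists were read by their counts and medians, since outside the retinoid and amylase lists no member of the lists described below passed the threshold. Over all genes 55.8% were higher at 24 months. At an unadjusted p under 0.05, 7.44% of all genes were higher and 9.05% lower, and without overlap 3.86% were higher and 4.78% lower. These shares stand beside every list count below. Among contractile genes, none of the 11 myosin heavy chains reached an unadjusted p of 0.05. Their median was 0.013, or 0.047 after cyclic loess. With 4 arrays per age this does not show that they were unchanged. Myh4 differed by 0.013. The embryonic chain Myh3 gave 0.12 (SE 0.099), and Myh14, a nonmuscle chain, -0.065 (SE 0.051). Arrays varied in fibre makeup within each age: Myh7, the slow chain, lay between 7.47 and 8.90 in young and between 7.16 and 8.79 in old muscle. Myh2, the chain of fast oxidative fibres, was 11.58 in 6-month replicate 4 and 11.36 in 24-month replicate 4, against 12.46 to 12.70 in the other arrays. Slow fibre genes had a median of 0.065 (10 of 13 higher, none at an unadjusted p under 0.05), which ranged from -0.10 without 6-month replicate 4 to 0.37 without 24-month replicate 4 and was 0.11 after cyclic loess.

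Fast fibre genes were lower in 15 of 16 cases with a median of -0.069, but the median was 0.014 after cyclic loess and -0.14 without 24-month replicate 3. The ages did not overlap in 4 of them. Myoz1, a Z-disc protein of fast fibres, lay between 11.89 and 11.99 in young and between 11.68 and 11.81 in old arrays (-0.19), and Tnni2, fast troponin I, differed by -0.175. Ckm, muscle creatine kinase, lay between 13.11 and 13.19 when young and between 12.94 and 13.03 when old (-0.18, adjusted p 0.126 in limma). Among sarcomere structure genes, Klhl41, which stabilises thin filaments, differed by 0.21 and Tcap, titin cap, by -0.195, both without overlap. In the dystrophin complex, which ties the fibre's cytoskeleton to the matrix, 9 of 13 genes were lower and 8 reached an unadjusted p under 0.05 in that direction, with a median of -0.18 and -0.12 after cyclic loess. Of all genes, 9.05% were lower at that level. Sntb1, syntrophin beta 1, read 7.42, 7.67, 7.33 and 7.28 in young and 7.05, 7.02, 7.04 and 6.88 in old muscle (-0.43, adjusted p 0.103 in limma). The protease Capn3, whose loss causes limb-girdle muscular dystrophy in humans, differed by -0.21 (adjusted p 0.120 in limma). Calcium handling genes had a median of -0.073, which was 0.0056 after cyclic loess. Of these, Cacnb1, the beta subunit of the muscle calcium channel, differed by -0.29 and Ryr1, the calcium release channel, by -0.19, both without overlap.

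Glycolysis genes lay lower in 17 of 19 cases, with 9 of 19 at an unadjusted p under 0.05 and the same number without overlap, all lower. Their median was -0.14, or -0.078 after cyclic loess, and all 19 are bright genes above the array median. Of all genes, 9.05% were lower at that p level and 4.78% lower without overlap. Slc16a3, the lactate exporter MCT4, gave 8.69, 8.75, 8.77 and 8.85 in young arrays and 8.21, 8.46, 8.44 and 8.51 in old ones, so the ages did not overlap (-0.36, SE 0.071, adjusted p 0.103 in limma). Pgam2, muscle phosphoglycerate mutase, differed by -0.29. In glycogen metabolism Gaa, the lysosomal glucosidase, differed by -0.19 and Pgm1, phosphoglucomutase, by -0.275, both without overlap. Respiratory complex I had 31 of 34 genes lower, 12 at an unadjusted p under 0.05 and a median of -0.13 (-0.074 after cyclic loess). Ndufa8 differed by -0.31 and Ndufs6 by -0.235. Complexes II to V had 33 of 41 lower, 16 at that level, and a median of -0.16 (-0.089 after cyclic loess and -0.092 without 6-month replicate 3). In these, Uqcr11, a small subunit of complex III, read between 7.61 and 7.91 in young and between 7.22 and 7.49 in old muscle (-0.37), and Atp5g2, an ATP synthase subunit, differed by -0.27.

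The citric acid cycle list was mixed, with 11 of 26 higher and a median of -0.023, or 0.034 after cyclic loess. Dld, the dehydrogenase subunit shared by pyruvate and oxoglutarate dehydrogenase, gave 11.10, 10.92, 10.88 and 10.97 when young and 11.23, 11.23, 11.16 and 11.32 when old (0.27), while Pcx, pyruvate carboxylase, differed by -0.29. Both were without overlap. Fatty acid oxidation genes had a median of -0.11, which was -0.046 after cyclic loess, -0.033 without 6-month replicate 3 and 0.00 without 24-month replicate 4, with 2 of 25 at an unadjusted p under 0.05, Acads (-0.21, or -0.14 without 6-month replicate 3) and Hadh (-0.32), both enzymes of beta-oxidation whose ages overlapped. Of the PPAR fasting response genes, Angptl4, an inhibitor of lipoprotein lipase, lay between 7.25 and 7.67 in young and between 6.70 and 7.20 in old arrays (-0.465) and Ucp3, a mitochondrial uncoupling protein, overlapped (-0.14). Polrmt, the mitochondrial RNA polymerase, differed by -0.16 and Tfb2m, its partner factor, by 0.225. Smox, spermine oxidase, had 9.36, 9.63, 9.36 and 9.68 at 6 months against 8.63, 9.01, 8.98 and 9.18 at 24 months (-0.56, adjusted p 0.105 in limma). Gatm, which makes the creatine precursor guanidinoacetate, differed by -0.27. In quadriceps, whose table was normalized separately, Smox differed by -0.63.

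**Figure D3:**
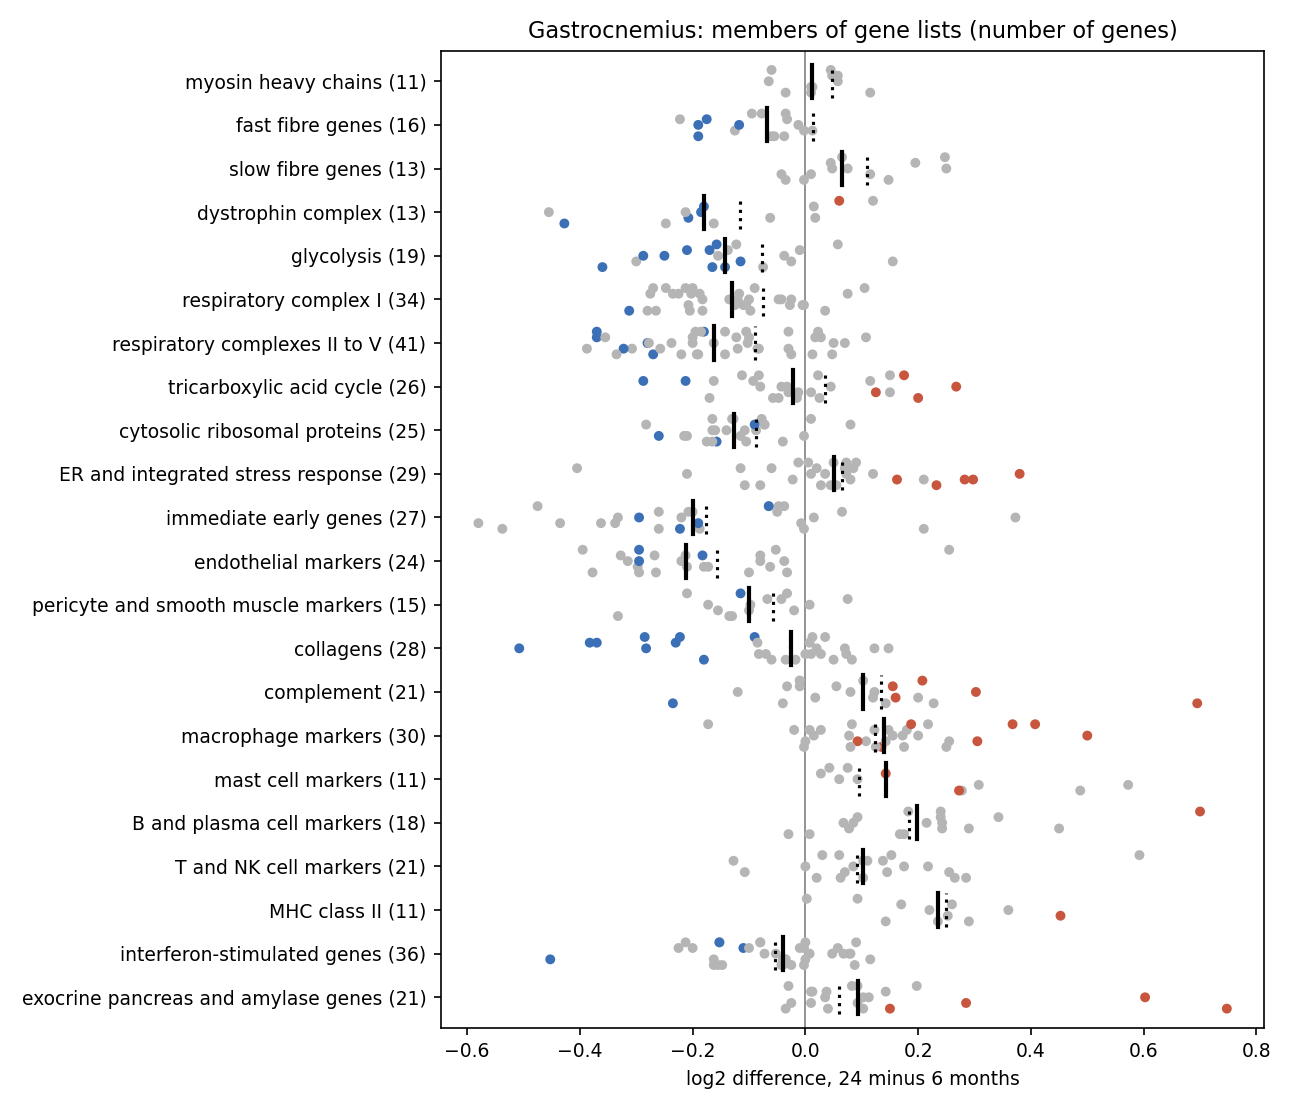
Log2 difference, 24 minus 6 months, of the members of 22 gene lists in gastrocnemius (horizontal axis; 1 row per list with its number of genes). Red and blue points are genes whose old arrays all lie above or below the young ones, grey points overlap, the solid bar is the list median and the dotted bar the median after cyclic loess. Most macrophage and MHC class II genes lie to the right of 0 and most endothelial, glycolysis and dystrophin complex genes to the left.

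Genes of tissue macrophages lay higher in old muscle in 27 of 30 cases, with 8 at an unadjusted p under 0.05, 7 without overlap and a median of 0.14 (0.12 after cyclic loess). Of all genes, 7.44% were higher at that level and 3.86% higher without overlap. In heart 23 of these 30 were higher, with a median of 0.091. In whole muscle, more cells of a type and more RNA per cell cannot be told apart. Mrc1, the mannose receptor of resident macrophages, read 6.86, 6.82, 6.81 and 6.88 in young and 7.32, 7.12, 7.26 and 7.30 in old muscle, a difference of 0.41 (SE 0.055) at an adjusted p of 0.0734 in limma. Vsig4, a complement receptor of such macrophages, lay between 3.94 and 4.13 and then between 4.30 and 4.46, below the median of every array (0.37, adjusted p 0.0792 in limma). Cd163, the haemoglobin scavenger receptor, picked after its values were seen, lay between 6.45 and 6.79 at 6 months and between 6.87 and 7.24 at 24 months (0.50). The general markers gave smaller values, 0.135 for Adgre1, 0.15 for Csf1r and 0.14 for C1qa, which was 0.045 without 24-month replicate 1. The complement list had 14 of 21 genes higher and 5 higher without overlap. C7, of the membrane attack complex, gave 8.51, 8.39, 8.09 and 8.19 in young and 8.86, 9.18, 9.04 and 8.88 in old arrays (0.695, SE 0.10, adjusted p 0.0734 in limma). C6 of the same complex, below the median of every array, differed by 0.21.

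The medians of the MHC class II, B cell and T cell lists rested largely on 24-month replicate 1, as was seen after their values were. MHC class II genes, which present antigen to helper T cells, were higher in all 11 cases with a median of 0.235, but the median was 0.042 without that array. B and plasma cell genes had 17 of 18 higher and a median of 0.20, or 0.036 without it, and T and NK cell genes 19 of 21 higher and a median of 0.10, or 0.013 without it. Many of these genes are dim: 9 of the 18 and 5 of the 21 lay above the array median. Cd3e, of the T cell receptor complex, was 6.33 in that array and 5.08 to 5.56 in the other 7. The B cell gene Cd79a was 6.75 there and 5.61 to 5.94 elsewhere. Ctss, the protease cathepsin S, read 7.39 there and 6.55 to 6.70 in the other old arrays, above 6.23 to 6.41 in the young ones. Ighm, the IgM heavy chain, was 8.28 there, with 7.33 to 7.81 in the other old and 6.60 to 7.30 in the young arrays (0.70, adjusted p 0.162 in limma). Cxcl13, a chemokine that draws B cells, was 8.47 there and 6.63 to 7.36 in the other old arrays, which overlapped the young range of 5.66 to 6.63 at its end (1.03, or 0.645 without replicate 1). Ccl8, a chemokine of resident macrophages, differed by 0.28. The macrophage median was 0.0875 without that array, and Mrc1 differed by 0.38. Mast cell genes were higher in 11 of 11 cases with a median of 0.14, or 0.11 without it and 0.095 after cyclic loess, led by the proteases Mcpt4 (0.49) and Cpa3 (0.57), each overlapping between ages. Of these 11, 3 lay above the array median, and 5 were higher in heart. Interferon-stimulated genes were higher in 10 of 36 only, with a median of -0.040, and Gbp7, a guanylate-binding protein, differed by -0.45 without overlap.

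Endothelial genes lay lower in 23 of 24 cases, with 10 at an unadjusted p under 0.05, 3 without overlap and a median of -0.21 (-0.16 after cyclic loess). Of all genes, 9.05% were lower at that level and 4.78% lower without overlap. Of the members with the smallest p, Esam, an adhesion molecule of tight junctions, gave 6.85, 6.86, 6.90 and 6.77 in young and 6.47, 6.57, 6.71 and 6.45 in old arrays (-0.295, adjusted p 0.108 in limma). Vwf, von Willebrand factor, lay between 6.59 and 6.70 and then between 6.42 and 6.49 (-0.18). The defining markers overlapped between ages: Cdh5, VE-cadherin, differed by -0.395, Pecam1 by -0.265, and Kdr, the VEGF receptor, by -0.27. Without 24-month replicate 4 Pecam1 differed by -0.15 and Kdr by -0.13. Leaving out 24-month replicate 4 gave a list median of -0.13, and leaving out 24-month replicate 3 gave -0.27. Pericyte and smooth muscle genes had 13 of 15 lower and a median of -0.10 (-0.056 without 6-month replicate 3 and -0.058 after cyclic loess), with Pdgfrb, the receptor that marks pericytes, at -0.33.

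Collagens of types I and III had lower values in old muscle, none past the threshold. Col1a1, of type I collagen, read 8.24, 7.94, 8.40 and 7.85 at 6 months and 7.63, 7.47, 7.62 and 7.68 at 24 months, without overlap, a difference of -0.51 (SE 0.11) at an adjusted p of 0.111 in limma. Col3a1, of type III collagen, differed by -0.37 and Col1a2, named after its values were seen, by -0.38. The whole list of 28 collagens was split, with 15 lower and 13 higher. In 9 of the 28 all old arrays lay below all young ones, where 4.78% of all genes did. None had the reverse, found in 3.86% of all genes. The list median was -0.026, or 0.0017 without 6-month replicate 3 and -0.0083 without 24-month replicate 3. Sparc and Hspg2, matrix proteins that bind collagen and line basement membranes, differed by -0.325 and -0.34. Of the matrix proteases, Mmp3 differed by 0.18 and Mmp2 by -0.245, both with overlap. Tendon genes did not differ at an unadjusted p of 0.05 in any of 15 cases, but 6-month replicate 3 stood out: Chad, chondroadherin, was 7.76 there and 6.19 to 6.85 in the other 7 arrays, and Fmod, fibromodulin, 8.62 there and 7.47 to 7.83 elsewhere. Without that array Col1a1 differed by -0.41. Fat markers gave a median of 0.016, or 0.030 after cyclic loess, and Retn, resistin, differed by 0.365 without overlap.

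Folding proteins of the endoplasmic reticulum were among the higher genes. Canx, the chaperone calnexin, read 9.37, 9.32, 9.36 and 9.37 in young and 9.68, 9.67, 9.61 and 9.65 in old arrays, a difference of 0.30 (SE 0.042) at an adjusted p of 0.0734 in limma. Hspa5, the chaperone BiP, gave 8.82, 8.70, 8.93 and 8.80 and then 9.18, 9.17, 9.25 and 9.17 (0.38, SE 0.056, adjusted p 0.0734 in limma). Hsp90b1, a further chaperone of that compartment named after its values were seen, differed by 0.28. In none of the 3 did the ages overlap. Of 29 genes of this list 21 were higher and 5 had all old arrays above all young ones, as 3.86% of all genes did. The list median was 0.050. The cytosolic chaperones were split, with a median of -0.053 that was 0.013 after cyclic loess. Hspa4, an Hsp110 family chaperone, differed by 0.17 and Fkbp4, a cochaperone of Hsp90, by -0.27.

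Degradation and synthesis genes had mostly lower values. Autophagy had 20 of 27 genes lower. At an unadjusted p under 0.05, 11 were lower and 4 higher, beside 9.05% and 7.44% of all genes. The median was -0.0625 (-0.028 after cyclic loess), and all 27 lay above the array median. Ulk1, the kinase that starts autophagy, lay between 9.53 and 9.78 in young and between 9.18 and 9.41 in old muscle (-0.305), and Atg9a, a membrane protein of the growing autophagosome, differed by -0.28. The proteasome median was -0.048 but 0.019 after cyclic loess, with Psmb3 at -0.23 and Psmd8 at -0.25. Cytosolic ribosomal proteins were lower in 23 of 25 cases with a median of -0.13 (-0.087 after cyclic loess), led by Rps15 (-0.26) and Rpl7a (-0.21). Antioxidant genes had 20 of 27 lower and a median of -0.095 (-0.048 without 24-month replicate 4 and -0.050 after cyclic loess). Gstp1, a glutathione transferase, read 10.69, 10.86, 10.78 and 10.83 in young and 10.38, 10.32, 10.54 and 10.29 in old arrays (-0.41, adjusted p 0.0792 in limma), and Gstm1 of the same family differed by -0.17.

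Nerve contact and atrophy genes gave medians of 0.0088 (0.024 after cyclic loess) and 0.015, beside 0.015 over all genes. Of 26 neuromuscular junction and denervation genes, 1 was higher and 2 were lower at an unadjusted p under 0.05. Of all genes, 7.44% were higher and 9.05% lower at that level. Chrnb1, a subunit of the acetylcholine receptor, differed by 0.21 and Myog, a myogenic factor known to respond to denervation, by -0.28, both with overlap. In the atrophy list, whose median was 0.067 after cyclic loess, Eda2r, a receptor of the tumour necrosis factor family linked to muscle wasting, lay between 8.34 and 8.85 in young and between 8.84 and 9.42 in old muscle (0.46), and Fbxo31, a ubiquitin ligase component, differed by -0.20. Satellite cell genes had 21 of 29 lower and a median of -0.078 (-0.064 after cyclic loess), with Chrdl2, a BMP antagonist, at -0.25 and the integrin Itgb1 at 0.18, both without overlap. Sln, sarcolipin, an inhibitor of the calcium pump known from developing fibres, gave 7.35, 6.59, 6.57 and 6.66 and then 7.59, 8.0, 7.70 and 7.07 (0.80, adjusted p 0.141 in limma). The high young array is replicate 1 and it lay above the lowest old array. Ankrd1, a stress-responsive protein of the fibre named after its values were seen, differed by 0.93 with wide spread (SE 0.36), or by 0.605 without 24-month replicate 1. The neonatal and regenerating fibre list had 10 of 14 genes higher and a median of 0.076, and leaving out 6-month replicate 4 gave 0.0029 and leaving out 24-month replicate 1 gave 0.014.

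Schwann and myelin genes had 13 of 18 lower. Drp2, which links Schwann cells to their matrix, read 6.16, 6.24, 6.19 and 6.13 in young and 5.86, 5.83, 5.96 and 5.85 in old arrays without overlap (-0.305, SE 0.049, adjusted p 0.0792 in limma). Pmp22, a protein of peripheral myelin, lay between 9.08 and 9.25 and then between 8.74 and 8.88 (-0.32).

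Immediate early genes were lower in 23 of 27 cases, with 11 at an unadjusted p under 0.05 and a median of -0.20 (-0.18 after cyclic loess, and -0.12 without 6-month replicate 3). Of all genes, 9.05% were lower at that level. Zfp36l1, an RNA-binding protein that promotes mRNA decay, differed by -0.36 and Klf2, a transcription factor, by -0.435. These genes are known to respond within minutes to handling and stress, and the labels do not state the time from death to freezing. In the clock list, Nfil3 lay between 6.91 and 7.27 in young and between 6.60 and 6.75 in old muscle (-0.39), and Nr1d1, the repressor Rev-erb alpha, differed by -0.26. Of insulin signalling genes, Akt2, the kinase that carries the insulin signal to glucose uptake, differed by -0.195 and Rictor, of the mTORC2 complex, by 0.20, both without overlap.

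In lipid genes, Scd1, the enzyme that makes monounsaturated fatty acids, gave 9.18, 9.39, 8.82 and 9.21 and then 9.97, 9.48, 10.01 and 9.57 (0.61), and Lpin1, lipin 1, differed by -0.34. Fdft1, squalene synthase of the sterol pathway, lay between 7.74 and 7.86 in young and between 7.36 and 7.55 in old arrays (-0.34, adjusted p 0.0792 in limma). In iron handling, Trf, transferrin, differed by 0.32, and Hjv, hemojuvelin, which acts in hepcidin control and is abundant in muscle, by -0.405, both without overlap. Slc40a1, the iron exporter ferroportin named after its values were seen, differed by -0.455 in gastrocnemius (-0.30 without 24-month replicate 4) and by -0.59 in quadriceps. Of the p53 and senescence list, Phlda3, an inhibitor of Akt, differed by -0.28 and Cdkn1b, the cell cycle inhibitor p27, by -0.36, both without overlap. Slc38a4, an amino acid transporter of the imprinted network, differed by -0.37. Peg3 of that network, named after its values were seen, ran from 6.73 to 7.99 in young and from 6.22 to 6.82 in old muscle (-0.625, or -0.37 without 6-month replicate 1). Of the methyltransferase family, Mettl22 differed by -0.305 without overlap. Mettl21c, named for its call in quadriceps, differed by -0.43 with overlap here (adjusted p 0.206 in limma) and by -0.94 in quadriceps (adjusted p 0.0303 in limma, fitted on that muscle's own 6 arrays).

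Small nuclear RNA genes, a class looked at after the data were seen, had mostly negative age differences, and the classes were not tested against each other. Most are annotated copies of spliceosomal RNAs, which act in splicing, and such copies can share probes. Of 914, 679 were lower, 278 of them at an unadjusted p under 0.05, beside 9.05% of all genes. The class median was -0.14 in gastrocnemius and 0.065 in heart. Without 24-month replicate 3, the lowest old array for this class (class mean 5.16), 141 were lower at that level and the median was -0.12. The median was -0.14 after cyclic loess too. The age difference had a median of 0.058 over 955 small nucleolar RNAs, 0.053 over 610 miRNAs and 0.040 over 3196 long noncoding RNAs, or 0.021, 0.023 and 0.0066 after cyclic loess. Gm23971, a small nuclear RNA gene picked after its values were seen, read 9.04, 9.07, 9.12 and 8.97 in young and 8.51, 8.63, 8.74 and 8.61 in old muscle (-0.43, adjusted p 0.0734 in limma). Immunoglobulin and T cell receptor V segments were higher in 266 of 302 cases with a median of 0.13 (0.10 after cyclic loess). Their mean per array lay between 4.28 and 4.34 at 6 months and between 4.28 and 4.83 at 24 months. The lowest old array was replicate 3, within the young range, and the median was 0.19 without it. No median was taken without the highest old array, so how far the rise rests on that array is not known. Of the 302, 43 lay above the array median.

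The age difference was then compared with that of heart in a joint fit, which asks whether the age differences of both tissues are unequal. The test of the difference passed for 179 of 30063 genes (0.595%), 32 with the larger value in gastrocnemius and 147 with the smaller. After quantile normalization these were 38 and 51. The count ranged from 22 to 547 when each array in turn was left out: 22 without the first young heart array, and 547 without 24-month gastrocnemius replicate 3. Amtn, amelotin, a secreted protein known from tooth enamel, had the smallest p (difference of differences -0.925, SE 0.097, adjusted p 0.00155 in limma). In gastrocnemius it lay between 4.18 and 4.26 at both ages, below the array medians, and in heart it read 5.07, 5.25, 4.94 and 5.10 in young and 6.24, 6.01, 5.95 and 5.92 in old mice. Prkcq, protein kinase C theta, was likewise level in gastrocnemius, with 9.66 to 9.69 in young and 9.56 to 9.83 in old arrays, while in heart it lay between 6.70 and 7.05 and then between 7.60 and 7.67 (-0.72, adjusted p 0.0118 in limma).

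For 3 other genes among the 5 of smallest p the values went opposite ways in the tissues. Gm25985, a small nuclear RNA gene, read 3.87, 3.91, 3.72 and 3.89 in young and 3.30, 3.19, 3.39 and 3.48 in old gastrocnemius, and 3.92 to 4.11 and then 4.23 to 4.42 in heart (-0.85, adjusted p 0.00296 in limma). Its gastrocnemius values lay far below the median of every array of that muscle. Cdc34, an E2 enzyme of the ubiquitin pathway, gave 9.36, 9.55, 9.45 and 9.50 and then 8.91, 9.02, 9.17 and 9.04 in gastrocnemius, with a difference of 0.14 in heart (-0.57, adjusted p 0.0122 in limma). The miRNA gene Mir6240 gave 13.02, 13.06, 13.02 and 12.94 and then 12.61, 12.41, 12.73 and 12.41 in gastrocnemius, with a difference of 0.17 in heart (-0.64, adjusted p 0.0122 in limma). Mir193b, picked after its values were seen, differed the other way round: it lay between 5.73 and 6.08 in gastrocnemius at both ages, and in heart between 6.70 and 6.83 and then between 5.92 and 6.26 (0.76, adjusted p 0.0122 in limma). The mature RefSeq sequences of these miRNA genes are shown because they are the miRNA members of this comparison, with the seed, bases 2 to 8, in capitals.
mmu-miR-6240: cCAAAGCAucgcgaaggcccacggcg
mmu-miR-193b-5p: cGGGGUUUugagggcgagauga
mmu-miR-193b-3p: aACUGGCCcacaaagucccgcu
In GRCm38.p6 they lie on the plus strand at chr5:114851973-114851998, chr16:13449533-13449554 and chr16:13449570-13449591. No seed was shared among the 3. The array gives 1 value per gene, so mature and precursor RNA cannot be told apart. Binding of other RNA to these probes was not tested.

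**Figure D4:**
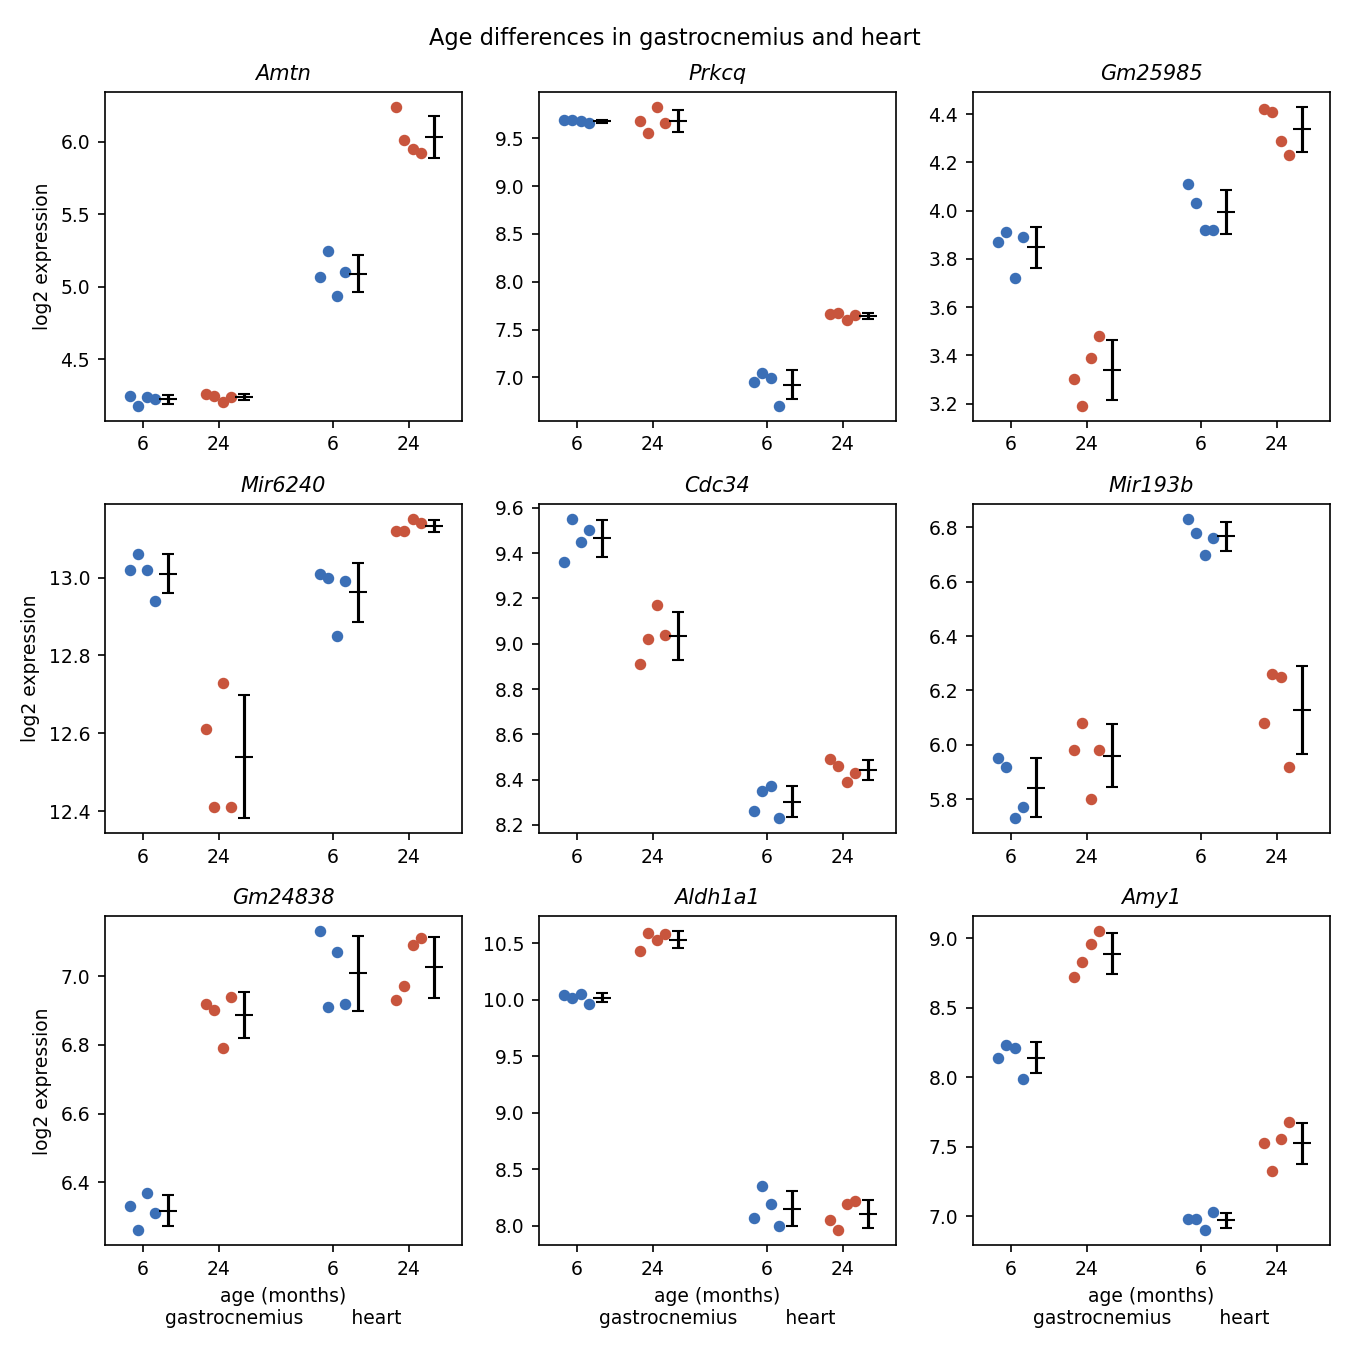
Log2 expression (vertical axes) in gastrocnemius and heart at 6 and 24 months for 9 genes. Points are arrays and bars mean ± SD (n = 4 per age and tissue). The ages lie apart in heart but overlap in gastrocnemius for Amtn, Prkcq and Mir193b, the reverse holds for Aldh1a1 and Gm24838, and Amy1 is higher at 24 months in both.

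Of the genes that rose in gastrocnemius, Aldh1a1 and Gm24838 differed from heart. Heart Aldh1a1 lay between 8.0 and 8.35 in young and between 7.96 and 8.22 in old mice, so the difference of differences was 0.56 (SE 0.10, adjusted p 0.0301 in limma). For Gm24838 heart lay between 6.91 and 7.13 at both ages (0.55, adjusted p 0.0134 in limma). Amy1 differed in heart too, with 6.98, 6.98, 6.90 and 7.03 in young and 7.53, 7.33, 7.56 and 7.68 in old mice, a difference of 0.55 at an adjusted p of 0.0634 in limma. Its difference between the tissues was 0.195 (SE 0.11, adjusted p 0.474 in limma), which missed the threshold and does not show that the tissues behaved alike. Mrc1, Canx and Hspa5 gave -0.025, -0.013 and 0.010 in heart, and their differences from heart passed at adjusted p-values of 0.0491, 0.0287 and 0.0436 in limma. Over 22 alternatives the call was lost in 16 for Mrc1, 14 for Hspa5 and 9 each for Canx and Aldh1a1, and in 0 for Gm24838. Fitted on its own, each tissue gave few calls by age, 3 of 30063 genes in gastrocnemius and 2 in heart, and none was called in both. Counts this small do not tell whether the tissues share age differences.

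Quadriceps stood in a table normalized separately, so its values are set beside these without a test. Amy1 read 8.40, 8.26 and 8.20 in young and 8.74, 9.09 and 9.11 in old quadriceps, a difference of 0.69, and Aldh1a1 10.51, 10.68 and 10.54 and then 11.07, 11.20 and 10.81, a difference of 0.45. Both kept the ages apart there without passing the threshold in that muscle's own limma fit (adjusted p 0.195 for Amy1 and 0.565 for Aldh1a1). Efemp1 differed by 0.28, Mettl21e by -0.45, C7 by 0.31, Canx by 0.14 and Hspa5 by 0.20. Mrc1 differed by -0.013 and AY036118 by -0.067, against 0.41 and -0.52 in gastrocnemius. Other genes, picked after their values were seen, went the opposite way in quadriceps. The mean rose from 11.90 to 12.13 for Tcap, from 12.69 to 12.84 for Ryr1 and from 12.67 to 12.76 for Hjv. For Dld it fell from 9.92 to 9.77, and for Ckm it was 14.13 at both ages. How many of the named genes kept their direction in quadriceps was not counted.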

How the data were processed

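Total RNA of heart and gastrocnemius was measured on 16 arrays of 1 design and that of liver and quadriceps on 12 of another. The authors deposited log2 values per probe set to 2 decimals, made with RMA per the submitters' processing notes (version not given in the sources used here). Of 65956 probe sets in the heart and gastrocnemius table, 30604 had 1 gene symbol, 2146 several and 33206 none. Symbols were updated through RefSeq tables for 1135, and the probe set of highest mean over the 16 arrays stood for each of 30063 genes. Age differences were fitted over the 8 gastrocnemius arrays with limma 3.58.1 (lmFit, eBayes) in R 4.3.3, adjusted by Benjamini-Hochberg over all genes with a threshold of 0.05. The difference from heart was an interaction term in a fit of 16 arrays. Scripts were tested on simulated data. Of 1450 genes in 66 lists, 1286 matched.

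Named are the genes past the threshold, filled to 5 per direction by smallest p, up to 2 members of smallest p per list, the 5 genes of smallest p of the difference from heart, Myh4, and defining markers for checks of the arrays. Related amylase and Aldh1a genes and those said to be picked after their values were seen fall outside it. The members and lists were chosen with earlier results of these data known. The number of arrays limits the precision. Alternatives were other normalizations, filters, priors, weights, blocks and left-out arrays. The liver arrays were not used here.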

Additional observations from a re-analysis of the deposited data

Results flagged for a closer look

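A set of 134 genes was followed here, which lacks some genes named above and holds some not named. For 22 of them the age difference in gastrocnemius differed from that in heart at an adjusted p under 0.05 in limma's interaction test. Of these, 8 passed under every alternative run (Amtn, Cdc34, Gm24838, Gm25985, Gm4799, Mir193b, Mir6240 and Prkcq) and 14 lost the call under at least 1, with the same sign throughout. The difference of differences, gastrocnemius minus heart, was positive for Sult1e1 (0.97), Mir193b (0.76), Aldh1a1 (0.56), Gm24838 (0.55), Mrc1 (0.43), Hspa5 (0.37) and Canx (0.31). Negative values belonged to Amtn (-0.925), Gm25985 (-0.85), Prkcq (-0.72), Mir6240 (-0.64), Gm12224 (-0.63), AY036118 (-0.61), Cdc34 (-0.57), Tcap (-0.54), Gm4799 (-0.54), Hjv (-0.53), Gstp1 (-0.45), Mettl21e (-0.44), Phlda3 (-0.40), Fdft1 (-0.375) and Capn3 (-0.33).

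In 20 of 268 groups of 4 gastrocnemius arrays (7.46%), 1 array of a gene of this set lay far from the other 3 by Dixon's ratio, where chance gives about 5%. At 6 months replicate 1 was the lowest for Ckm (13.11), Fdps of the sterol pathway (6.72), Hjv (11.75) and Ighm (6.60) and the highest for Sln (7.35). Replicate 2 was the highest for Aldh1a7 (6.28) and the lowest for Aldh1a3 (5.64). Replicate 3 was the highest for Hspg2 (8.71) and Pmp22 (9.25) and the lowest for Tfb2m (8.80), and replicate 4 the lowest for Pecam1 (8.01). At 24 months replicate 1 was the highest for C1qa (6.78) and C6 (3.89) and the lowest for Atg9a (8.69) and Tcap (11.95). Replicate 2 was the lowest for Polrmt (7.02), replicate 3 the highest for Hspa5 (9.25) and Ndufs6 (10.11), and replicate 4 the lowest for Akt2 (8.88) and Slc40a1 (6.92).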

How the results depend on the processing

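The 3 calls by age became 1 (Gm24838) with arrays centred on their median, 81 without dim genes, 9 with an intensity trend and robust prior, 829 in a joint fit with heart, 89 with array weights and 1 (Amy1) at a minimum of 1.5-fold. With the replicate block limma called 0 genes (adjusted p 0.0823 for Amy1, Aldh1a1 and Gm24838), at 5718 with an unadjusted p under 0.05, and over every probe set 0, at 8294. Leaving out single arrays gave 0 to 70. The numbers share no stated source, and deviations of same-numbered young and old arrays correlated at r = 0.13, -0.045, 0.21 and 0.30. The 179 differences from heart became 89 with quantile normalization, 62 with centring, 470 without dim genes, 739 with array weights, 302 with the replicate block and 22 to 547 with single arrays left out. Small differences changed sign: Amtn to -0.028 (quantile), -0.0025 (centred) and -0.029 (cyclic loess), Myh4 to -0.0050 (centred), and Prkcq to -0.015 (centred), -0.037 (array weights), -0.0042 (without 6-month replicate 4) and -0.047 (without 24-month replicate 3), with 0.043 the highest with an array left out. Of 66 list medians, 21 changed sign under a normalization. Over 17 alternatives of the 134 genes followed, 2112 values kept direction and side of the threshold, 121 came to pass it and 21 no longer passed. Of 481 values of the 22 called differences from heart, 150 no longer passed. The causes were not tested.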
